A study of Drosophila melanogaster with 7 samples.

Results

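Genes of muscle contraction and the sarcomere were followed in dissected brains of Drosophila melanogaster with and without knockdown of circMbl, the circular transcript of the gene muscleblind. The set was given as 32 gene names, chosen by function. Of these, 28 stood on intact lines among 14476 gene lines of the deposited table. The name CG6803 is a synonym of Mf and has no line of its own, so the names stand for 31 genes. TpnC25D, bt (projectin) and Msp300 (a giant nuclear envelope and muscle protein) fall on lines overwritten by another table and are not analysed here. The RNA was read by CEL-seq2 in a form adapted to bulk samples, a 3' RNA-seq method that counts the poly(A) end of each transcript. Values are normalized counts, and since each transcript is counted at its end they do not grow with transcript length. Control flies were Actin-GAL4 UAS-sh8MM, with a hairpin carrying 8 mismatches, and knockdown flies were Actin-GAL4 UAS-sh-circMbl. Both genotypes therefore carried the Actin driver, which is active in nearly all tissues, muscle included. All titles name day 3. Sex, age in other terms, and the number of brains per library are not given in the labels.

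The 5 control libraries held between 3732675 and 5546121 counted reads, and knockdown libraries 1 and 2 held 3260649 and 3308580. The titles give the controls and the knockdown libraries different date codes. They also give lane codes: L7 for controls 1, 4 and 5, L5 for controls 2 and 3, and L2 for both knockdown libraries. Date and lane code thus cannot be told apart from genotype. Controls 2 and 4 share title number 3, and controls 3 and 5 share title number 2. The labels do not say whether such pairs come from the same RNA, nor whether each library had its own animals. The p-values therefore set the group difference only against the spread between these libraries, and that spread may be technical. The knockdown itself is not checked here, because circular RNA has no poly(A) tail.

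Muscle shortens when myosin heads of the thick filament pull on actin in the thin filament. Calcium released inside the fibre binds troponin C, which moves troponin and tropomyosin aside on the actin filament, and the SERCA pump then returns the calcium to the sarcoplasmic reticulum. Titin-like proteins and the Z-disc hold the filaments in register. Muscleblind is an RNA-binding splicing regulator named for its role in fly muscle and photoreceptors, and is well expressed in neurons. A brain contains almost no striated muscle of its own, and head muscles, the oesophagus and the aorta lie close to it. Counts of 3' ends sum all isoforms of a gene, so exon choice in these genes, many of which are heavily spliced, was not measured. The annotation lists from 1 to 9 different transcript ends per gene, with 9 for Tm1.

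The genes were separated, from background knowledge, into 22 expressed mainly in muscle and 6 expressed also outside it (Argk, Tm1, SERCA, Zasp52, wupA and Tm2). The second group made up most of the signal. Argk, an arginine kinase that buffers ATP in muscle and in neurons, had a mean of 2761 ± 546 normalized counts in controls (SD, n = 5). SERCA stood at 1510 ± 115 and the tropomyosin gene Tm1 at 1446 ± 343. Among the genes of muscle, troponin T (up) had 409.1 ± 139, the myosin regulatory light chain Mlc2 had 385.3 ± 79.8 and the muscle myosin heavy chain Mhc had 289.1 ± 49.5. The neuronal synaptotagmin gene Syt1 held between 10123 and 11380 normalized counts in all 7 libraries, so neuronal RNA was present in each. Fat body transcripts were abundant as well: the yolk protein gene Yp1 held 5056 to 15708 in controls and 19232 and 17441 after knockdown. It exceeded Syt1 in both knockdown libraries and in control 2. TpnC47D, the flight muscle gene fln (flightin) and tn, a TRIM protein that keeps myofibrils intact, had means under 10 normalized counts and were not tested. TpnC47D was at 0 in control 1 and knockdown 1, and its highest value was 4.9. Values of fln ran from 1.8 to 9.1 and those of tn from 1.2 to 11.9.

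**Figure D1:**
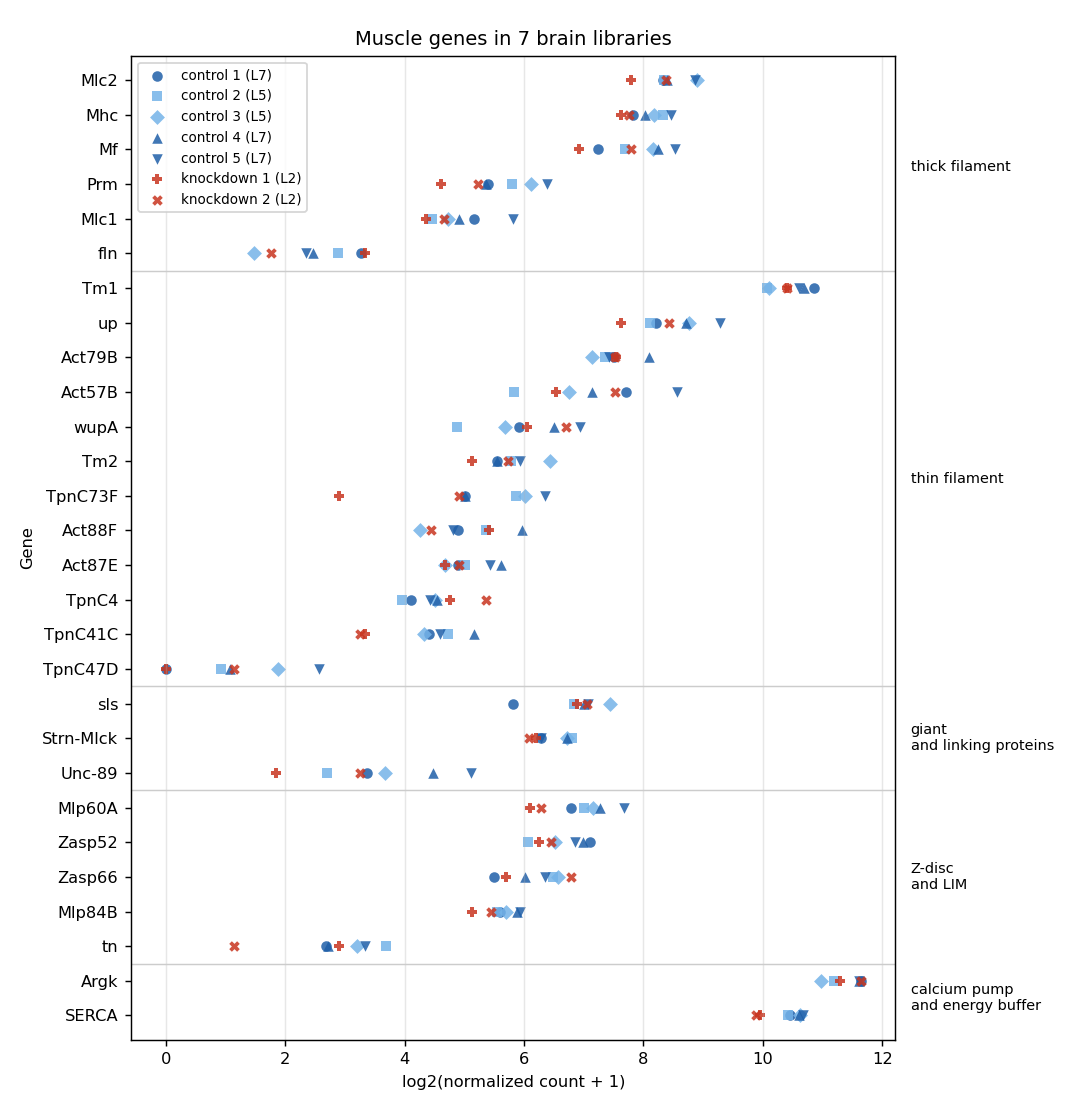
Normalized counts of 28 muscle genes in 7 libraries, as log2(normalized count + 1), by role; each symbol is 1 library, dark blue for L7 controls, light blue for L5 controls and red for knockdown. Argk, Tm1 and SERCA lie above 9 on this axis in every library, and both knockdown symbols lie left of all controls for SERCA, TpnC41C and Mlp60A.

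Knockdown brains held less SERCA, TpnC41C and Mlp60A than control brains, and no tested gene of the set was called higher in the comparison with all 5 controls. These are 3 of 25 tested, against a background of 2.63% of all 7287 genes called lower, 3.47% called higher and 6.11% called in either direction (limma on log2 values, Benjamini-Hochberg adjusted p under 0.05). The remaining 22 did not reach that threshold. At an unadjusted limma p under 0.05, 7 genes had lower values and 1 (TpnC4) had higher ones, 8 of 25 beside 25.5% of all genes. Voom on the counted reads called 1 lower (SERCA; 1.73% of all genes) and 0 higher (2.85%). Over the 25 genes the log2 fold change had a median of -0.42, beside -0.02 over all genes tested. It was -0.48 in the 19 tested genes of muscle and -0.20 in the 6 expressed also outside muscle. The log2 fold change was below 0 in 19 of the 25, or 76.0%, and in 51.9% of all genes tested. In bulk RNA, fewer muscle cells on the dissected brains and less RNA per muscle cell cannot be told apart.

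**Figure D2:**
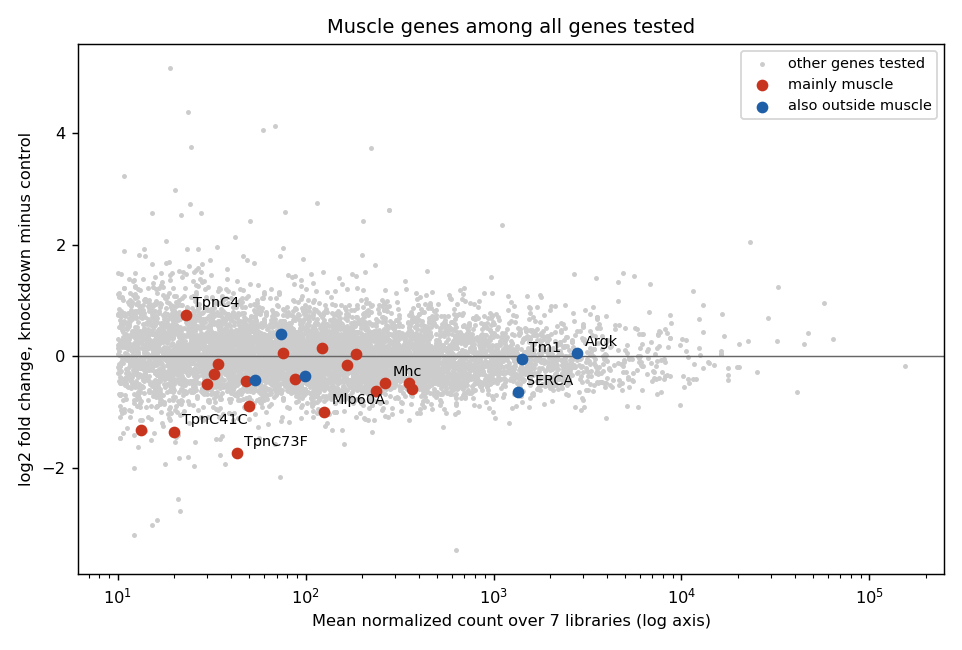
log2 fold change (knockdown minus control, on log2(normalized count + 1)) against the mean normalized count of each gene, on a log axis; grey points are all other genes tested, red points genes expressed mainly in muscle and blue points genes expressed also outside it. SERCA lies at -0.64, TpnC41C at -1.35, Mlp60A at -0.99 and TpnC73F at -1.74, while TpnC4 lies at 0.74.

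SERCA encodes the only sarco-endoplasmic reticulum calcium pump of the fly and acts in all cells, muscle and neurons alike (FBgn0263006, chromosome arm 2R, 23925077 to 23935884, BDGP6 annotation of dm6). Controls 1 to 5 held 1401, 1376, 1584, 1562 and 1630 normalized counts, and the knockdown libraries held 995.6 and 942.7. The controls were tightly grouped and both knockdown libraries lay below all of them. SERCA was thus 1.55-fold lower, a log2 fold change of -0.64 ± 0.12 (SE; limma, adjusted p = 0.0236). Against the L5 controls the log2 difference was -0.61 (limma, adjusted p = 0.00413) and against the L7 controls -0.66 (adjusted p = 0.000695), in a fit of knockdown, L5 and L7 as 3 groups. In that fit SERCA passed against both lane codes with any 1 library left out, with adjusted p-values from 0.00077 to 0.0288. Where this left an arm with 1 library, that library was assumed to vary like the other groups. In the fit with all controls as 1 group, the call ended without control 4 (limma, adjusted p = 0.0604) or control 5 (0.0674), within 0.000794 to 0.248 over the alternatives. It also ended without knockdown 1 or knockdown 2, with log2 fold changes of -0.68 and -0.60. Those fits hold 1 knockdown library, and a lost call there is not particular to SERCA. Adding the title number or the source-name number as a block to the fit with all controls also ended the SERCA call. The log2 fold changes were then -0.66 and -0.52. Such blocks compare fewer libraries. Control 1 has no knockdown library of its title number, and controls 3, 4 and 5 have none of their source-name number. CG2812 overlaps a SERCA transcript end on the other strand and held at most 14.6 normalized counts in any library.

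Troponin C is the calcium sensor of the thin filament, and the fly has several genes for it that are used in different muscles. TpnC41C, a form of adult muscle (FBgn0013348, 2R from 5065237 to 5070210), held 20.2, 25.6, 19.1, 34.7 and 23.0 normalized counts in controls 1 to 5 and 9.1 and 8.5 in the knockdown libraries. The knockdown values lay below all controls and rest on 7 reads in each library. It was 2.55-fold lower, a log2 fold change of -1.35 ± 0.29 (SE; limma, adjusted p = 0.0342). Adding the title number or the source-name number to the fit as a block, which compares fewer libraries, ended this call. The log2 fold changes were then -1.41 and -1.28. Among single controls left out, that call ended without control 1 (limma, adjusted p = 0.0571), control 4 (0.0638) or control 5 (0.0826). It also ended with voom on the counted reads (0.0743) and against L5 controls only (0.0675). Adjusted p-values ran from 0.0115 to 0.172 over the alternatives with both knockdown libraries. The call ended as well without knockdown 1 or knockdown 2, which leaves 1 knockdown library, with log2 fold changes of -1.39 and -1.31.

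TpnC73F, known from larval and tubular muscle, held 31.1, 57.6, 63.7, 31.3 and 80.7 normalized counts in controls 1 to 5, beside 6.5 and 29.2 after knockdown. Both knockdown values lay below all controls, but they differed from each other more than knockdown 2 differed from the lowest control. Its log2 fold change of -1.74 ± 0.55 (SE) did not pass (limma, adjusted p = 0.0903). It was -0.73 without knockdown 1 and -2.75 without knockdown 2. TpnC4, the form known from stretch-activated flight muscle, was the only tested gene of the set whose knockdown values lay above every control: 26 and 40.2 against 16.3, 14.6, 21.9, 22.4 and 20.6. Its log2 fold change of 0.74 ± 0.28 (SE) did not pass either (limma, adjusted p = 0.139).

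The reads of the 4 measured troponin C genes were also set against each other, without TpnC25D. A share can be higher because the other genes are lower, and TpnC4 itself did not pass. TpnC4 gave 24.1%, 14.8%, 20.3%, 25.0% and 15.9% of the troponin C reads in controls 1 to 5. In knockdown 1 it gave 62.5% (20 of 32 reads, 95% exact binomial interval 43.7 to 78.9%), and in knockdown 2 it gave 50.8% (33 of 65 reads, 38.1 to 63.4%). Both intervals lie above the highest control share, whose own interval was 16.0 to 35.9%, and they cover counting error only. The shares were computed after the gene values were seen and were given no test. TpnC73F gave from 35.0 to 62.4% in controls, beside 15.6 and 36.9% after knockdown, and TpnC41C gave 17.8 to 38.8% against 21.9 and 10.8%. For neither of these did the knockdown shares lie wholly apart from the controls.

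**Figure D3:**
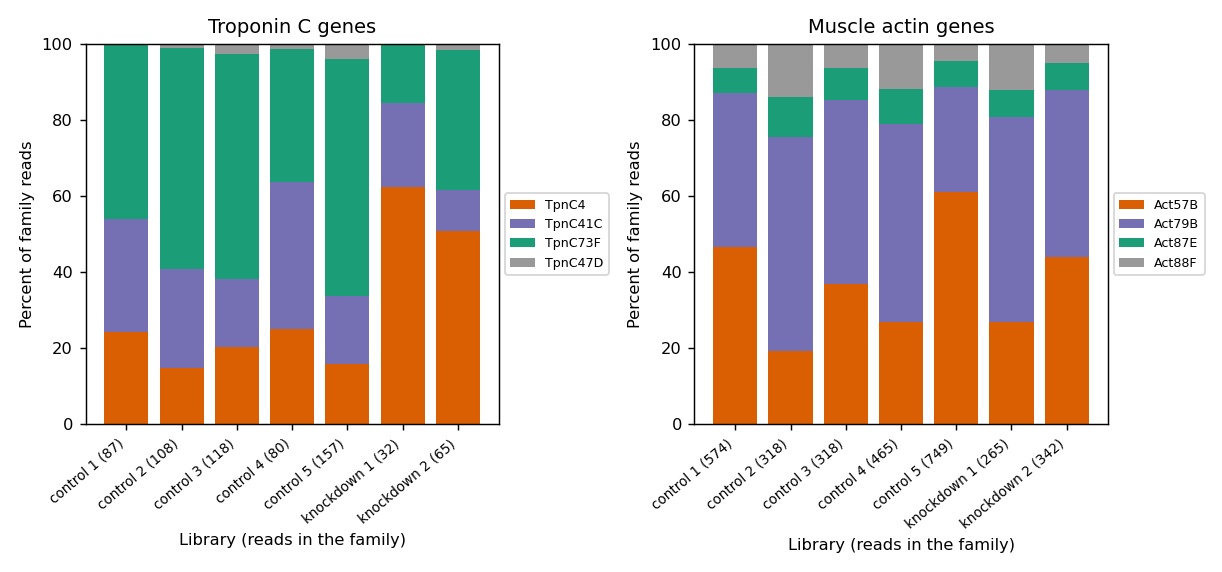
Share of reads that each gene took within its family (percent, bars add to 100), for 4 troponin C genes and 4 muscle actin genes in each library, with the number of family reads in brackets. The TpnC4 share was 14.8 to 25.0% in controls and 62.5 and 50.8% after knockdown, while the Act57B share spread from 19.2 to 61.2% among controls alone.

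The remaining thin filament genes showed no called difference. Muscle actins are near-identical in coding sequence, so the authors' counting could have split any reads that reach it between genes. Reads come from transcript ends, and how many reach coding sequence was not tested. Act57B, an actin of larval and adult body muscle, spread 6.76-fold among controls, with 208.4, 55.8, 106.5, 139.9 and 377.0 normalized counts. The knockdown libraries held 92.3 and 182.7, within that spread. Act79B, the actin of leg and jump muscle, held 140.2 to 270.8 in controls and 185.9 and 183.9 in the knockdown. Act87E ranged from 24.6 to 48.1 against 24.7 and 29.2, and the flight muscle actin Act88F from 18.2 to 61.5 against 41.6 and 20.7. For all 4 actins the groups overlapped, and the adjusted p-values lay between 0.521 and 0.941 (limma). Troponin T (up) held 275.3 to 623.9 in controls and 196.3 and 342.3 in the knockdown. Troponin I (wupA) held 28.4 to 121.0 against 65.0 and 103.5. The tropomyosin gene Tm2, whose protein lies along the actin filament with that of Tm1, held 45.9 to 85.6 against 33.8 and 52.4.

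Of 5 thick filament genes tested 0 passed by limma or by voom (2 at an unadjusted limma p under 0.05). Their log2 fold changes lay between -0.90 and -0.48, and fln, not tested, had means of 5.07 in controls and 5.77 in the knockdown. Mhc held 224.8, 321.1, 289.5, 259.6 and 350.7 normalized counts in controls 1 to 5 and 196.3 and 214.4 in the knockdown libraries, without overlap. Its log2 fold change was -0.48 ± 0.18 (SE; limma, adjusted p = 0.142). Paramyosin (Prm), which forms the core of the thick filament, held 41.2, 54.9, 68.3, 40.3 and 83.1 against 23.4 and 36.5, also without overlap (-0.90 ± 0.32, adjusted p = 0.121). The knockdown values of the myosin light chains Mlc1 and Mlc2 and of myofilin (Mf), a thick filament protein of insects, overlapped those of the controls. For Mlc2 these were 219.7 and 331.3, against 320.4 to 478.0. Mf held 119.6 and 220.5 against 150.9 to 367.1, and Mlc1 held 19.5 and 24.4 against 21.0 to 55.1.

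LIM proteins and PDZ proteins of the Z-disc anchor actin filaments at the sarcomere's edge. Mlp60A, a muscle LIM protein (FBgn0259209, 2R from 24074602 to 24078223), held 109.7, 128.1, 141.1, 154.4 and 203.3 normalized counts in controls 1 to 5 and 67.6 and 76.7 in the knockdown libraries. The knockdown libraries lay close together and below all controls. It was 1.99-fold lower, a log2 fold change of -0.99 ± 0.23 (SE; limma, adjusted p = 0.0397). A block by title number or by source-name number, which compares fewer libraries, ended the Mlp60A call. The log2 fold changes were then -1.09 and -0.71. Among single controls left out, this call ended without control 3 (limma, adjusted p = 0.0529), control 4 (0.0793) or control 5 (0.0667), and it also ended with voom (0.064). Adjusted p-values ran from 0.00668 to 0.178 over the alternatives with both knockdown libraries. Without knockdown 1 or knockdown 2, which leaves 1 knockdown library, Mlp60A was not called, with log2 fold changes of -0.90 and -1.08. Its relative Mlp84B held 45.7 to 60.1 in controls and 33.8 and 42.6 in the knockdown, without overlap, and did not pass (-0.45 ± 0.20, adjusted p = 0.193). Zasp66 overlapped widely, with 44.3 to 93.8 against 50.7 and 109.6, as did Zasp52, with 65.9 to 136.1 against 75.4 and 86.5.

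Of the titin-like and giant proteins none of 3 passed (0 at an unadjusted limma p under 0.05, and 0 by voom). The titin-like gene sls held 55.2 to 172.1 normalized counts in controls and 117.0 and 132.8 in the knockdown. Strn-Mlck, of the titin and myosin light chain kinase family, held 76.6 to 110.7 against 72.8 and 67.0, without overlap (log2 fold change -0.41, limma adjusted p = 0.23). The obscurin gene Unc-89 was low and scattered, with 9.3, 5.5, 11.8, 21.3 and 33.7 in controls and 2.6 and 8.5 in the knockdown. In all, 8 of the 25 tested genes had both knockdown libraries below every control, against 15.9% of all genes tested. They were Mhc, TpnC41C, TpnC73F, Prm, Mlp60A, Mlp84B, Strn-Mlck and SERCA. Only TpnC4 among the 25 had both above, against 16.6% of all genes tested.

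Set against each lane code of the controls in the fit of 3 groups, the 25 genes were read beside a higher background. Against L5 controls 8 were called (background 21.6%), 6 of them lower (9.47%) and 2 higher (12.1%). Against L7 controls 7 were called (33.6%), all lower (18.5%), and 0 higher (15.0%). These comparisons share the knockdown libraries. TpnC41C, TpnC73F, Mlp60A and SERCA were lower against both, 4 of 25 beside 5.24% of all genes. With the lane codes fitted separately, TpnC41C did not pass against L5 controls (limma, adjusted p = 0.0675) nor TpnC73F against L7 controls (0.0672), so that Mlp60A and SERCA remained lower against both. In the fit of 3 groups 0 were higher against both, beside 5.83%. Tm1 had opposite calls, as did 1.61% of all genes. Leaving out control 2 or control 3 left 1 gene lower against L5, SERCA, and so did leaving out knockdown 1, while without knockdown 2 SERCA and TpnC73F passed. Leaving out knockdown 1 left 3 lower against L7, namely TpnC41C, Mlp60A and SERCA. TpnC73F then had -0.54 against L7 (limma, adjusted p = 0.437). Its call against L7 also ended without control 2 (adjusted p = 0.0645), control 3 (0.067) or control 5 (0.159). Mhc and Strn-Mlck were called lower against L5 but not L7 controls, and wupA was called higher there. Zasp52 and Unc-89 were called lower against L7 but not L5 controls. Each of these calls ended in some of the fits without 1 library, in 2 of 7 for Zasp52, 4 of 7 for Unc-89 and 5 of 7 for the others. The lane codes themselves differed for wupA and Zasp52, and did not pass for Mhc (limma, adjusted p = 0.519), Strn-Mlck (0.176) and Unc-89 (0.194).

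Differences between the lane codes of the controls themselves were common over all genes. Some genes of the set, most of them expressed also outside muscle, had them too. Act57B, wupA, Tm1, Zasp52 and Argk, 5 of the 25, were lower in L5 than in L7 controls, where 16.9% of all genes were (limma, 3 groups), and 0 were higher, beside 11.3%; 28.2% of all genes were called in either direction. Argk held 2351 and 2007 normalized counts in the L5 controls, and 3187, 3142 and 3118 in the L7 controls. Its knockdown values, 2506 and 3191, fell within the range of all controls. Tm1 held 1078 and 1099 in L5 controls, 1848, 1650 and 1555 in L7 controls, and 1358 and 1361 in the knockdown libraries. The knockdown libraries thus stood between the lane codes, higher than L5 controls (log2 difference 0.32, limma adjusted p = 0.0483) and lower than L7 controls (-0.31, adjusted p = 0.0283), while L5 and L7 controls differed by -0.63 (adjusted p = 0.000711). Against all controls the log2 fold change of Tm1 was -0.06 ± 0.22 (SE). The calls of Tm1 against L5 ended without control 2, 3, 4 or 5 or either knockdown library, with adjusted p-values from 0.0611 to 0.16, and those against L7 without control 1 or 4 or either knockdown library, from 0.06 to 0.102. Without control 2 the difference between lane codes passed in 2 of these genes, Tm1 and Argk, and without control 5 in 3, Tm1, Zasp52 and Argk.

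**Figure D4:**
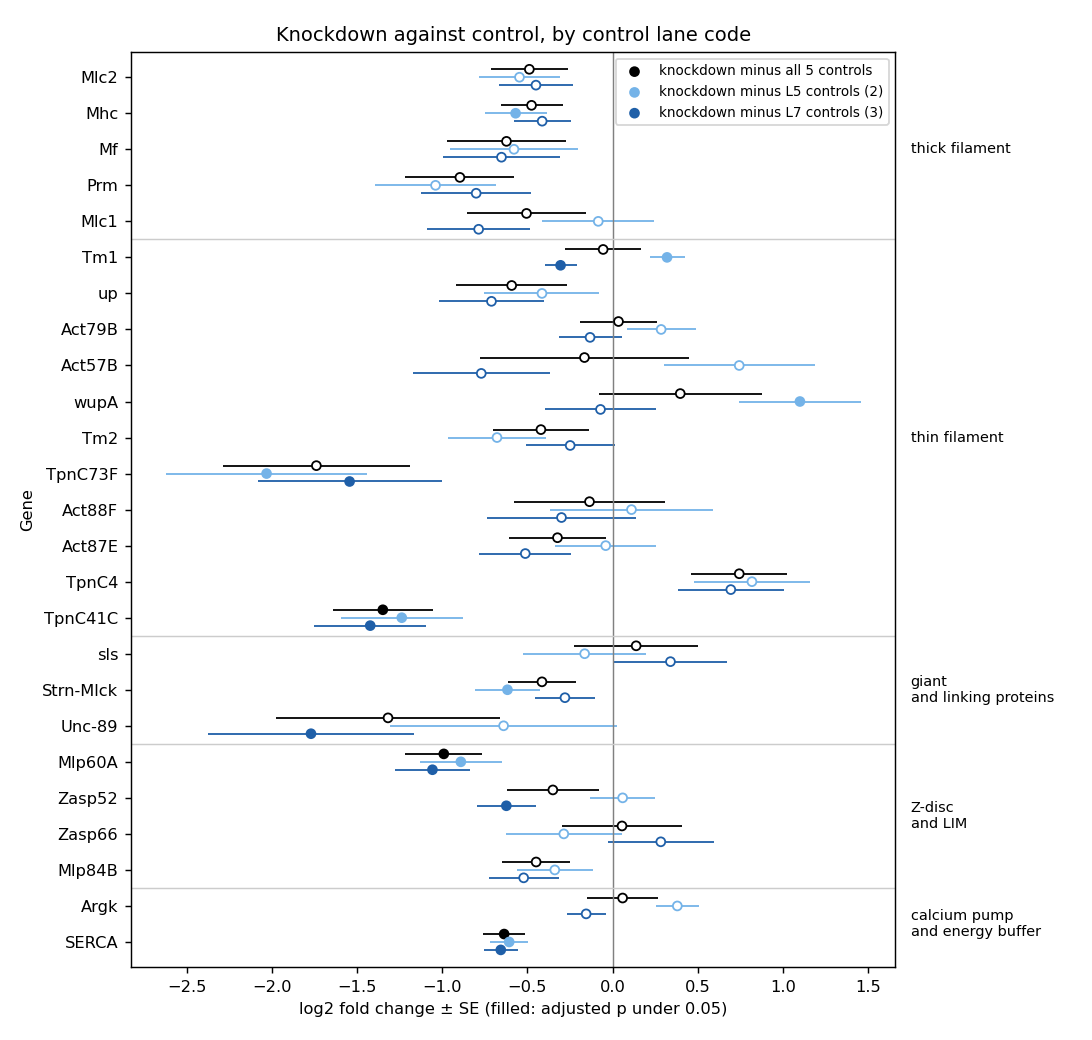
log2 fold change ± SE of 25 tested genes, knockdown minus all 5 controls (black), minus the 2 L5 controls (light blue) and minus the 3 L7 controls (dark blue); filled circles passed limma at an adjusted p under 0.05. SERCA, TpnC41C and Mlp60A are filled in all 3 comparisons, and Tm1 lies at 0.32 against L5 and at -0.31 against L7 controls.

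The genes of muscle also varied from library to library as a group. Summed over the 22 genes expressed mainly in muscle, normalized counts were 1938, 2105, 2563, 2533 and 3294 in controls 1 to 5 and 1521 and 2106 in the knockdown libraries. Knockdown 2 therefore stood level with control 2 and above control 1, and only knockdown 1 lay below all controls. The sum was 0.0359 to 0.0773% of all counted reads. The knockdown mean was 0.729 of the control mean. Control 5 was the highest of the 7 libraries in 12 of 25 tested genes, as in 10.5% of all genes tested, and knockdown 1 the lowest in 11, as in 16.7%. Knockdown 2 stood above knockdown 1 in 20 of 25, as in 48.3% of all genes. SERCA, TpnC41C and Strn-Mlck are among the 5 tested genes that did not follow this order between the knockdown libraries. For the 6 genes expressed also outside muscle the sum was 4953 and 4916 in the L5 controls, 6598 to 6677 in the L7 controls, and 5034 and 5737 in the knockdown.

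**Figure D5:**
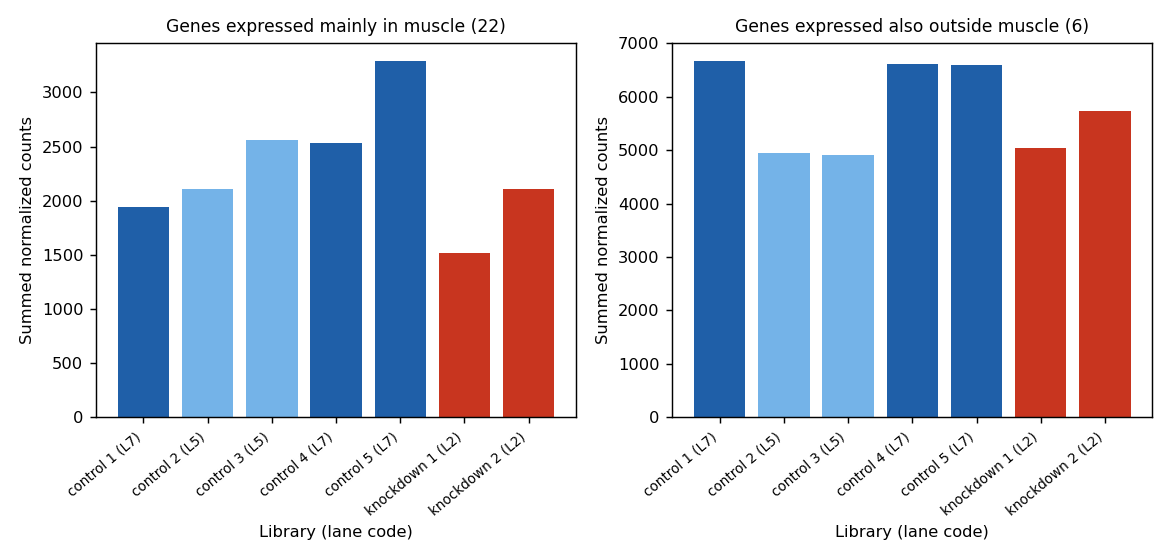
Summed normalized counts per library of 22 genes expressed mainly in muscle (left) and 6 expressed also outside muscle (right), bars from 0, dark blue for L7 controls, light blue for L5 controls and red for knockdown. On the left control 5 reaches 3294 and knockdown 1 stands at 1521, and on the right the L5 controls stand at 4953 and 4916 and the L7 controls at 6598 to 6677.

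A list of 60 other genes with a role in muscle, some of them active outside it as well, gave 1 call. The list therefore does not measure muscle tissue alone. Of 42 tested 0 were called lower by limma or by voom (13 had an unadjusted limma p under 0.05, in either direction, beside 25.5% of all genes). The log2 fold change was below 0 in 23 of the 42, and in 51.9% of all genes tested. Its median was -0.06, beside -0.02 over all genes tested. The peptide genes SclA and SclB were counted from the same reads and are separate entries in the 42, the 13 and the 23. CG5010 (Chchd2, a mitochondrial protein that is not particular to muscle) was called higher, from 1560 ± 306 (SD, n = 5) to 2575 ± 88.0 (SD, n = 2; limma, adjusted p = 0.0498). It passed in 7 of 19 alternatives, with adjusted p-values from 6.86e-05 to 0.291. The next smallest p-values belonged to Mef2, the transcription factor that switches on muscle genes and also acts in neurons. It held 803.1 to 929.6 normalized counts in controls and 681.1 and 545.7 in the knockdown, without overlap, and did not pass (log2 fold change -0.50 ± 0.13 (SE), limma adjusted p = 0.056). The integrin gene mys had 0.49, the non-muscle myosin genes sqh and zip had -0.60 and -0.45, and the cytoplasmic actin Act42A had -0.59, with adjusted p-values from 0.0861 to 0.125. The muscle-type glutamate receptor gene GluRIID was at 0 in all 7 libraries, and GluRIIE held at most 3.1.

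Markers of other tissues that may stay on a dissected brain also differed, and their part in the muscle values was not tested. All 6 measured fat body markers were higher in value, of 8 listed, and 3 passed (Yp3, fit and tobi). These 3 did not pass without knockdown 1 or without knockdown 2, in fits that hold 1 knockdown library. The sum of the 6 was 44064 and 50224 in the knockdown against 14945 to 35929 in controls. Of 8 tracheal markers 6 were tested. Gasp was lower, in 8 of 18 alternatives as well, and obst-A higher, in 17 of 19. Tracheal markers gave sums of 317.1 and 399.5 against 324.1 to 439.7, with obst-A alone at 153.4 and 171.7 against 61.7 to 79.4. The other 5 of the 6 tested had log2 fold changes below 0, as had 51.9% of all genes. The median over the 6 was -0.54. Among them trh held 70.2 and 87.7 against 107.0 to 139.9 and did not pass (limma, adjusted p = 0.0597). Hemocyte sums overlapped, at 120.6 and 192.4 against 124.4 to 242.8. Heart markers summed to 632.1 and 735.7 against 587.4 to 684.2. Most of that sum was CG31547 (listed as NKCC), with 528.6 and 609.6 against 481.1 to 596.4. Within that list the cardiac gene Hand held at most 4.6, and prc, a matrix protein of the heart, held 9.1 and 7.3 against 14.0 to 32.1 (limma, adjusted p = 0.0708). In the other direction svp held 104.0 and 82.8 against 61.3 to 81.7 (limma, adjusted p = 0.23). Sur, not tested, held 9.1 and 8.5 against 2.2 to 7.3. Of the 3 heart markers tested 1 had a log2 fold change below 0. The summed eye markers followed the title number in both genotypes. Sums were 8431 to 9048 in libraries of number 3 and 4814 to 5426 in those of number 2. Control 1, the only library of number 1, had 4676. Not every eye marker did so: norpA held 2068, 2412 and 1945 in number 3 and 2200, 2318 and 1982 in number 2. Arr2 was level in controls 3 and 4, at 975.1 and 966.7. For norpA and trpl both knockdown libraries lay below all controls, and neither gene passed. The muscle sum did not follow the title number: number 2 gave the 2 highest controls and the lower knockdown library. Of 6 neuronal markers nSyb was higher and 5 did not pass, and 0 of 4 glial markers passed (1 at an unadjusted limma p under 0.05, 0 by voom).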

How the data were processed

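Brain RNA of 5 control and 2 knockdown samples was extracted with Trizol and made into CEL-seq2 libraries, per the labels' protocols. The submitters' processing notes name STAR and dm6. For the assignment of reads to genes, its annotation and strand, and any collapsing of molecular identifiers and the normalization, no method is given in the sources used here. The values deposited by the authors are normalized counts, a signal: every value was a whole multiple of 1 step per library (100% within 0.001 of a read), which gave the counted reads. A run of 2139 lines overwritten by another table, 1 line with a damaged name and 402 columns of no sample were not used. Genes were placed with the Ensembl BDGP6 annotation, and neighbours sought within 500 bases of each transcript end.

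Values were compared as log2(value + 1), which understates the change of low genes, with limma 3.58.1 in R 4.3.3 (mean-variance trend). The fit covered 7287 genes with a mean of at least 10, with Benjamini-Hochberg adjustment and a threshold of 0.05, and was tested on simulated data. Intervals of read shares are exact binomial (scipy 1.17.1). The genes, lists and tests were chosen with earlier results of these data known. Every gene of the set on an intact line is named. Of the list of other muscle genes, those past limma and the 6 with the smallest p are named. Alternatives tried were other pseudocounts, minimum means, scalings, voom, leaving out each library, single lane codes, averaging same-titled controls and replicate blocks.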

Additional observations from a re-analysis of the deposited data

How the results depend on the processing

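Of 466 gene and setting pairs, 411 kept direction and side of the threshold, 23 lost a call, 7 gained one and 25 turned sign. All genes called numbered 445, and 1082 against L5 controls alone, 2409 against L7 controls alone, 1301 with same-titled controls averaged, and 1 to 663 with 1 library left out. The 3 muscle genes called lower became 6 against L5 controls alone (Mlp60A and SERCA kept, TpnC41C lost, with Mhc, TpnC73F, Prm and Strn-Mlck), 6 against L7 controls alone (all 3 kept, with Tm1, Zasp52 and Unc-89), 1 with voom (SERCA) and 0 to 3 with 1 library left out. The 0 called higher stayed 0 in every one of these fits of 2 groups. The 5 genes called between control lane codes became 3 without a minimum mean, where more genes are tested, and 2 to 5 with 1 library left out. With a replicate block 51 genes were called (title number) or 120 (source-name number), and 0 muscle genes by either: adjusted p-values (limma) were then 0.0783 and 0.248 for SERCA, 0.0891 and 0.172 for TpnC41C, and 0.0778 and 0.178 for Mlp60A. In a block fit, controls without a knockdown library of the same number add nothing to the difference, so fewer libraries are compared. Deviations of same-titled knockdown and control libraries correlated at -0.03 to 0.14 and those of same source number at 0.10 and 0.14. With 2 knockdown libraries their deviations mirror each other, so these correlations cannot settle whether the numbers pair the samples. The labels state no pairing, and the main fit has no block, although the summed eye markers followed the title number in both genotypes. The planned edgeR and DESeq2 tests were not run, because the deposited columns, which hold the overwritten lines too, could not be taken as counts throughout.

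None of the 3 genes called in the main fit turned sign. Tm1 and Zasp52, called lower against L7 controls alone, did. Against L5 controls alone Act57B had 0.74, Act88F 0.11, Tm1 0.32, sls -0.16, Zasp66 -0.29 and Zasp52 0.0594. Against L7 controls alone Act79B had -0.13, wupA -0.0708 and Argk -0.16. With a block by title number Tm1 had 0.0417, sls -0.12 and Zasp66 -0.12, and by source-name number Act57B had 0.26. With 1 library left out the log2 fold change ran from -0.65 to 0.32 for Act57B, -0.0554 to 0.18 for Act79B, -0.62 to 0.35 for Act88F, -0.15 to 0.0417 for Tm1, -0.12 to 0.29 for sls, -0.49 to 0.60 for Zasp66 and -0.12 to 0.23 for Argk. The log2 ratio of the summed muscle genes ran from -0.71 to -0.24 when 1 library was left out, beside -0.46. The cause of these shifts was not tested. Genes near 10 normalized counts, such as TpnC41C with 7 reads per knockdown library, are limited by counting error.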

Other observations

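Of 5 ratios between partner genes, 2 had both knockdown libraries outside the range of the controls. They were picked after the values were seen and were not tested. Troponin T over troponin I (up over wupA) was 4.66 to 5.16 in L7 controls, 8.67 and 9.71 in L5 controls and 3.02 and 3.31 in the knockdown. Mlp60A over Mlp84B was 2.31 to 3.38 against 2.0 and 1.8. Myosin regulatory light chain over heavy chain (Mlc2 over Mhc) was 1.01 to 1.65 in controls, and 1.12 and 1.545 in the knockdown, within that range. SERCA over Mhc was 4.29 to 6.23 against 5.07 and 4.398, also within it. Prm over Mhc was 0.155 to 0.237 against 0.119 and 0.1705, the first of these below it.

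SclA and SclB, peptide genes that restrain SERCA in fly muscle, had the same value in every library (6.2, 11.9, 12.7, 16.8 and 14.8 in controls, 1.3 and 8.5 in the knockdown), so they were counted from the same reads. Their log2 fold change was -1.46 and did not pass (limma, adjusted p = 0.153). The small RNA gene snoRNA:660 lies on the same strand within the end of Act57B. It held 27.2 normalized counts in control 5, where Act57B was highest, and 0 in control 2, where Act57B was lowest, with 11.7, 5.5 and 2.2 in controls 1, 3 and 4. The knockdown libraries held 5.2 and 4.9, nearly level, while Act57B held 92.3 and 182.7.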
